A study of Drosophila melanogaster with 2 samples.

Results

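Of the 7 genes examined here, 4 carried a peak of the transcription factor E2f2 at their promoter in whole Drosophila melanogaster embryos, against 40.7% of all protein-coding genes. At bur the peak summit lay nearer to the start of a neighbouring gene, Mcm10. The 7 genes encode enzymes of de novo purine synthesis and of the branches from IMP to AMP and GMP. The genes were taken from a list of names, Prat, ade2, Gart, Paics, AdSL, AdSS and bur, out of 13968 protein-coding genes on the chromosome arms. The annotation calls ade2 Pfas, AdSL Adsl and AdSS Adss, and the listed names are kept here. A gene was called bound when the summit of a peak fell at most 500 bp from an annotated transcription start site (TSS) of that gene. Chromatin immunoprecipitation and sequencing (ChIP-seq) was done on 2 biological replicates of 1 group: whole embryos aged 0 to 24 h of the strain E2F2-GFP, which express E2f2 fused to eGFP, precipitated with an antibody against GFP. Both replicates share the donor strain, labelled as an insertion that targets E2f2, and which sequence drives the fusion is not stated in the labels. No control sample was used here, so no conditions were compared and no p-value was computed. The signal comes from all cells of the embryo, so strong binding in few cells and weak binding in many cannot be told apart.

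De novo purine synthesis builds the purine ring step by step on phosphoribosyl pyrophosphate and ends at IMP, from which separate branches lead to AMP and GMP. Dividing cells need these nucleotides for DNA and RNA, and the nuclei of the early fly embryo divide rapidly. Of the fly E2F proteins E2f2 is the one known chiefly for repression, as part of the dREAM complex with Dp and a retinoblastoma family protein. The order of enzymes followed here is Prat for the committed step, the trifunctional Gart, ade2, the bifunctional Paics, AdSL, and then AdSS with AdSL towards AMP and bur towards GMP.

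The promoter stretches of the 4 bound genes are shown because the peak summits fall in or beside them, and a stretch of Gart is shown for contrast. For Prat, ade2 and AdSL the stretch is the 150 bases upstream of the 5′ most TSS, so that its last base adjoins the start of the gene. For bur it is the gap between bur and its head-to-head neighbour Mcm10, without an antisense exon, and for Gart it is centred on the strongest summit that did not pass the threshold. All stretches read 5′ to 3′ on the strand of the named gene, in dm6 coordinates, from the RefSeq copy of that assembly. Capitals mark exact matches to motifs named further on.
Prat, chr3R:7911780-7911929, minus strand: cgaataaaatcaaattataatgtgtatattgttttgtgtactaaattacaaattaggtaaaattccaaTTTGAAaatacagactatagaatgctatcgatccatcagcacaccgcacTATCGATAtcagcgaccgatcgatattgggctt
ade2, chr2L:6046051-6046200, minus strand: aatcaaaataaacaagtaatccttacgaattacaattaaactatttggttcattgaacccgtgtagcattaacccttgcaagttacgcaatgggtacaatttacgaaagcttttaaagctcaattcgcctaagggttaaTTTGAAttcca
AdSL, chr3R:17021121-17021270, minus strand: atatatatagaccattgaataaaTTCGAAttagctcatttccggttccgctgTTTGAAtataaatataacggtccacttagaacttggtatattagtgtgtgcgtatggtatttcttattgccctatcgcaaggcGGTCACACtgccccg
bur, chr2L:21179730-21179932, minus strand: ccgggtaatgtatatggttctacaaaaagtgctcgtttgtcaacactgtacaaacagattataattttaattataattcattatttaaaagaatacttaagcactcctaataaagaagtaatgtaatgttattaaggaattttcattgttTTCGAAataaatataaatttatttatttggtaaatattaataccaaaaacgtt
Gart, chr2L:7024086-7024236, minus strand: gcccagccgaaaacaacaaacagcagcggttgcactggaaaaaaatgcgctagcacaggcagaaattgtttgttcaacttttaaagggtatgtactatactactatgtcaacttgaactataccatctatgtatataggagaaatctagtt

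In the conservative thresholded list made from both replicates (7312 entries, called the main list), Prat, ade2, AdSL and bur were bound, which is 57.1% of the 7 genes, against 40.7% of all protein-coding genes. The share differs from the background by about 1 gene. The thresholded list of replicate 1 (5002 entries) bound the same 4 genes, against a background of 33.5%, and that of replicate 2 (8250 entries) bound these 4 and AdSS, against 42.1%. The 4 genes were bound in both replicates, against 32.2% of all genes. The larger thresholded list of both replicates bound the same 4, against 44.1% of all genes. In the main list 4 of 7 were also counted with a window of 250 bp (background 35.8%), with the peak's midpoint in place of the summit (40.5%) and with the 5′ end of the gene as its only TSS (38.8%). A window of 1000 bp added AdSS (44.3%), and among the 1000 strongest entries bur alone was bound (7.82%). A peak's signal value is a number given by the authors' peak caller, and its ranks are comparable only within a list.

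bur, the gene of GMP synthetase, had the highest signal value of the 7. Its peak on 2L from 21179591 to 21180116 had a signal value of 827 in the main list (rank 888 of 7312, above 87.9% of entries). In replicate 1 the signal value was 298 (rank 857 of 5002) and in replicate 2 it was 523 (rank 920 of 8250). The 3 summits lay 1 bp or less apart, 212 or 213 bp upstream of the TSS of bur, in intergenic sequence. They were nearer to another gene: the TSS of Mcm10, a DNA replication factor transcribed in the opposite direction, starts 250 bp from that of bur and lay 37 bp from the main-list summit. When each summit was assigned only to the gene of its nearest TSS, bur was not bound and 3 of the 7 genes were, against 31.6% of all genes. Among 4442 genes bound in the main list and both replicates, the smallest summed difference from bur in percentile over the 3 lists belonged to Mcm10, with 0 because it shares the peak, followed by CG10195 and CG13084 with 0.66 percentile points each.

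ade2, the gene of the enzyme that makes formylglycinamidine ribonucleotide, came next. The ade2 peak on 2L from 6045874 to 6046256 had a signal value of 452 in the main list (rank 1597), 145 in replicate 1 (rank 1673) and 307 in replicate 2 (rank 1556). Its summits lay 16, 16 and 23 bp upstream of the most upstream of the 3 TSSs of ade2, nearer to it than to the 2 internal ones. The peak also covered the internal TSS at 6045967 in all 3 lists, so binding at these starts cannot be told apart. No TSS of another protein-coding gene lay within 500 bp of the summits.

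Prat encodes the amidotransferase that commits phosphoribosyl pyrophosphate to purines. The Prat peak on 3R from 7911697 to 7911937 had a signal value of 286 in the main list (rank 2356), 105 in replicate 1 (rank 2178) and 183 in replicate 2 (rank 2496). The main summit was 4 bp inside the 5′ UTR, that of replicate 2 was 5 bp inside it, and that of replicate 1 was 30 bp upstream. A further main-list peak with a signal value of 199 stood 1571 bp upstream of Prat and 60 bp from the TSS of Rfk, its neighbour.

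AdSL, adenylosuccinate lyase, acts both in the common pathway and in the branch to AMP, and had the weakest peak of the 4. The AdSL peak on 3R from 17021082 to 17021272 had a signal value of 227 in the main list (rank 2892), 72.6 in replicate 1 (rank 2902) and 148 in replicate 2 (rank 3014). The summits lay 48, 49 and 46 bp upstream of the TSS, in an intron of Pxd, a gene that spans this position. Replicate 2 had a further entry 251 bp upstream with a signal value of 13.8.

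**Figure D1:**
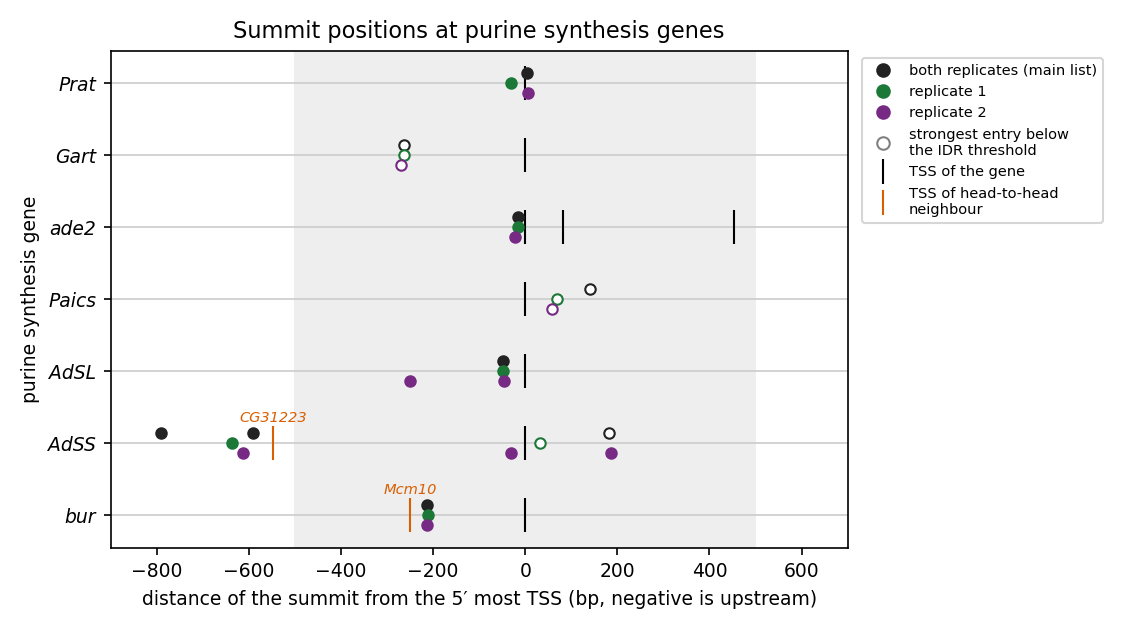
Distance of peak summits from the 5′ most TSS of each of the 7 genes, in bp (x axis, negative is upstream), with 1 row per gene (y axis). Filled points are thresholded summits, open points the strongest entry below the threshold, black ticks TSSs of the gene, orange ticks TSSs of head-to-head neighbours, and grey shading marks 500 bp to each side. Summits at Prat, ade2 and AdSL sit within 50 bp of the start except the second AdSL entry of replicate 2, while those of bur sit beside Mcm10 and the main-list summits near AdSS lie outside the shading.

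Across the genes bound in each list, bur and ade2 stood above the median signal value of bound genes in all 3 lists, AdSL stood below it in all 3, and Prat lay close to it. In the main list the signal value of bur was higher than that of 82.96% of 5681 bound genes, that of ade2 higher than 69.0%, that of Prat higher than 55.3% and that of AdSL higher than 46.1%. In replicate 1 the shares were 80.1%, 60.3%, 48.3% and 31.6% of 4680 bound genes, and in replicate 2 they were 83.1%, 71.4%, 55.5% and 47.2% of 5884. The order bur, ade2, Prat, AdSL was the same in the main list and in both replicates. The ratio of the replicate 2 to the replicate 1 signal value was 1.75 at bur, 2.11 at ade2, 1.75 at Prat and 2.04 at AdSL, against a median of 1.80 and quartiles of 1.56 and 2.13 over 4497 genes bound in both. Replicate summits were 1 bp apart at bur, 7 bp at ade2, 3 bp at AdSL and 35 bp at Prat, against a median of 18 bp over the same genes.

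**Figure D2:**
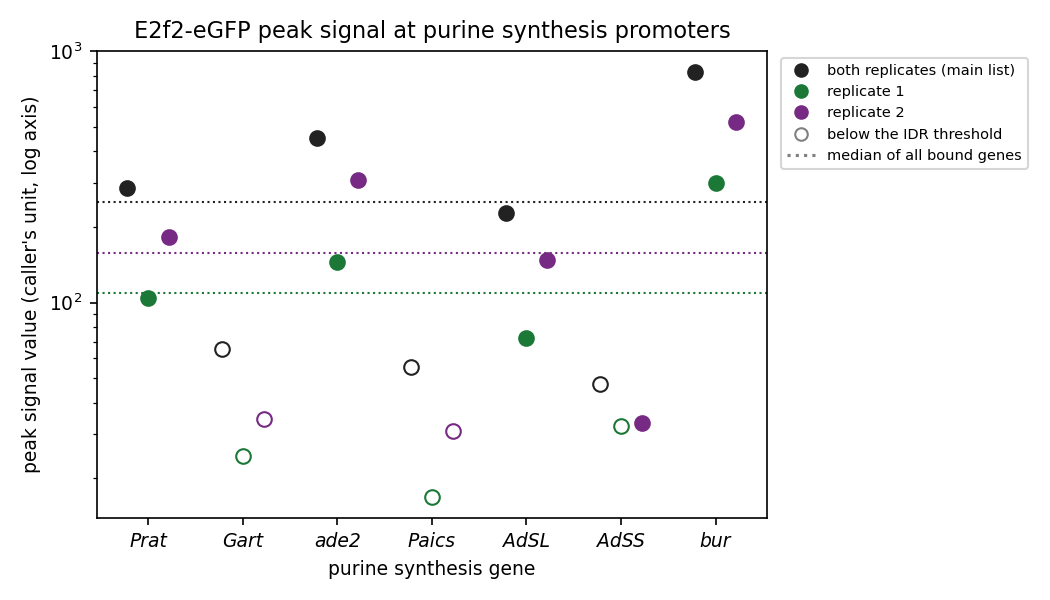
Signal value of the strongest entry within 500 bp of a TSS (y axis, caller's unit, log axis) for each of the 7 genes (x axis) in the main list and in each replicate. Filled points passed the threshold, open points did not, and dotted lines give the median of all bound genes in each list, which is 252 in the main list, 109 in replicate 1 and 158 in replicate 2. The points of bur and ade2 lie above their lines and the points of Gart, Paics and AdSS below 70 in every list.

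Gart, Paics and AdSS had no main-list summit within 500 bp of a TSS, but each had weaker entries there in the ranked lists, which also hold peaks that failed the reproducibility threshold. The irreproducible discovery rate (IDR) is low where a peak keeps its rank when peaks are ranked again from other reads, and every main-list entry had a −log10 of the global IDR of at least 2. AdSL was the bound gene nearest this threshold with a value of 3.70, and Gart was the unbound gene nearest it with 1.76. Of 8287 unbound protein-coding genes, 4184 (50.5%) had some ranked entry at their promoter, with a median best value of 0.24.

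Gart encodes the enzyme of 3 separate steps of ring assembly. Its strongest ranked entry had a signal value of 65.3 in the ranking of both replicates, and its summit lay 263 bp upstream of the TSS. Replicate 1 had an entry of 24.5 at the same base, with a −log10 IDR of 0.29. In replicate 2 the entry was 34.4 and lay 269 bp upstream, with a −log10 IDR of 0.14. The position of this weak entry was therefore shared by the 2 replicates to within 6 bp, although neither passed the threshold. The −log10 IDR of this entry in the ranking of both replicates was higher than the best value of 92.5% of unbound genes with a ranked entry. In the single replicates the best value at the Gart promoter came from another entry. It lay 463 bp upstream in replicate 1 (0.295) and 482 bp downstream in replicate 2 (0.231). These best values were higher than those of 61.9% of such genes in replicate 1 and 45.9% in replicate 2. In the main list 675 of the 7312 entries (9.23%) had less signal than the 65.3 of Gart. The nearest thresholded main-list summit stood 3418 bp upstream, 29 bp from the TSS of CG31908, with a signal value of 219.

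Paics encodes the enzyme that carboxylates the ring precursor and adds aspartate to it. Its strongest ranked entry had a signal value of 55.7 in the ranking of both replicates, 140 bp inside the gene in its 5′ UTR, and its −log10 IDR was 1.17. The entries of the single replicates were 16.9 and 30.8, 69 and 59 bp downstream of the TSS. The nearest thresholded main-list summit stood 3062 bp upstream, at the promoter of pira, with a signal value of 291.

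AdSS, adenylosuccinate synthetase, opens the branch from IMP to AMP and was the 1 gene on which the replicates differed. In replicate 2 it was bound by 2 overlapping entries, with signal values of 33.3 at 186 bp downstream of the TSS and 23.6 at 30 bp upstream. Both were among the weakest of that list, at ranks 7689 and 7807 of 8250, and the stronger exceeded 0.54% of the bound genes. Replicate 1 had an entry of 32.2, 33 bp downstream, with a −log10 IDR of 0.18, and in the ranking of both replicates the strongest entry was 47.3 with 1.43. A main-list peak with a signal value of 72.0 did stand nearby, with its summit 592 bp upstream of AdSS and just outside the 500 bp window. It lay 45 bp from the TSS of CG31223, a head-to-head neighbour that starts 547 bp from AdSS and was bound in all 3 lists.

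**Figure D3:**
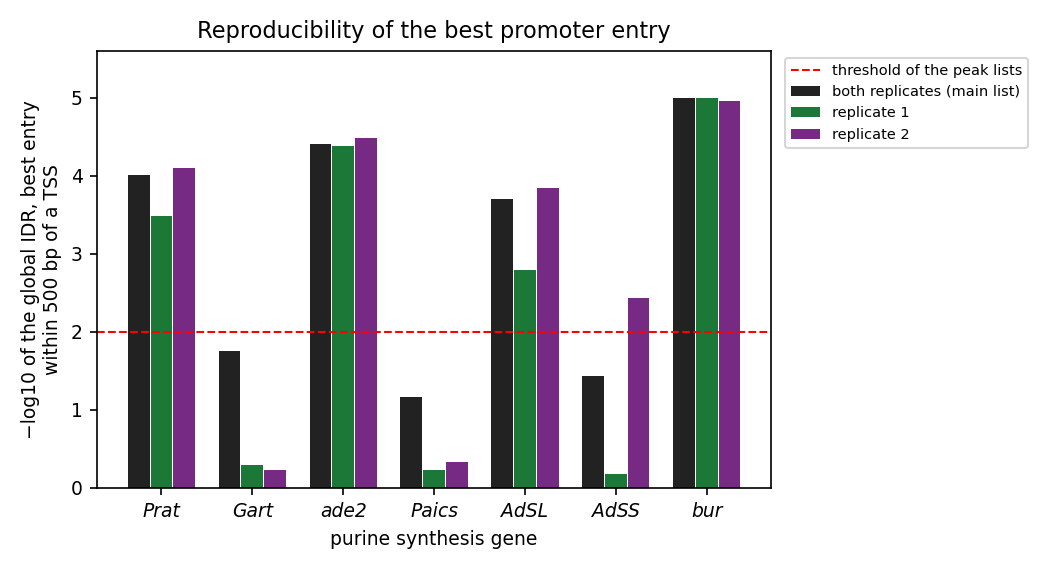
Best −log10 of the global IDR among entries within 500 bp of a TSS (y axis) for each of the 7 genes (x axis) in the ranked list of both replicates and of each replicate. The dashed line is the threshold of 2: the bars of Prat, ade2, AdSL and bur exceed it in all 3 lists, those of Gart and Paics in none, and that of AdSS in replicate 2.

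None of the 4 bound genes had a match to the E2F motif within 100 bp of its main-list summit, where the motif was searched on both strands in the spellings TTGGCGC, with its variant TTCCCGC, further the spelling TTCGCGC, and finally the spelling TTGCCGC. Of all 7312 main-list summits 15.5% had such a match, and none appeared at these 4 genes with windows of 50 or 200 bp either. The E2F motif was also missing from the promoters of all 7 genes, from 250 bp before to 50 bp after the gene's 5′ end, against 14.0% of all promoters with a match. This says only that these letters do not occur in the windows.

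Other promoter motifs did occur beside the summits, as the capitals of the stretches show. The DNA replication-related element TATCGATA occurred in Prat, 33 bp upstream of the main summit, against 10.2% of all summits with a match within 100 bp. The core of a motif common at housekeeping promoters, GGTCACAC, occurred in AdSL 11 bp upstream of its TSS and in the bur peak at the TSS of Mcm10, against 8.06% of all summits. The match at Mcm10 runs beyond the end of the stretch shown for bur. Cell cycle homology region letters, TTTGAA or the variant spelling TTCGAA, which dREAM can recognise, occurred within 100 bp of the summit in Prat, ade2 and AdSL, against 45.8% of all summits. In ade2 the TTTGAA match lay 8 bp upstream of the TSS and 8 bp from the summit, and bur had TTCGAA 117 bp from the summit. The bur summit was AT rich, with 30.8% G and C within 100 bp, against a median of 37.3% over all main-list summits, while Prat had 45.3%, ade2 47.3% and AdSL 41.3%.

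The neighbouring genes of nucleotide metabolism were counted by the same rule. Of 14 other purine genes 6 were bound in the main list (42.9%, near the background of 40.7%). CG11089, listed for the enzyme of the last steps to IMP, had a signal value of 1431, AMPdeam, AMP deaminase, had 1327, Aprt, the adenine salvage enzyme, had 1325, and the nucleoside diphosphate kinase gene awd had 298. CG11089 thus had a higher signal value than any of the 7 genes. The genes unbound in the main list were Prat2, Prps, Adk1, Adk2, Adk3, ry, Uro and Adgf-A. Of these, Adk2 was bound in replicate 1 with a signal value of 48.6, and ry in replicate 2 with 51.0. Prat2, the paralogue of Prat, had no entry at its promoter in the ranking of both replicates, whereas Prat was bound in every list. Prps, which makes phosphoribosyl pyrophosphate, was bound in replicate 2 with a signal value of 86.2 but not in replicate 1 or the main list. The gene of IMP dehydrogenase, ras, which acts just before bur, had 135 in the main list and was unbound in replicate 1.

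Of 5 genes that supply folate-bound carbon units 3 were bound in the main list (60.0%, against 40.7% of all protein-coding genes). These were Shmt with a signal value of 512, Fpgs1 with 485 and pug with 314, and Nmdmc was among the unbound. Adk3 and Nmdmc each had an entry in the ranking of both replicates that passed the threshold, with signal values of 1722 and 987. The main list does not hold these entries, for a reason that is not recorded, and both genes were counted as unbound. No such entry stood at any of the 7 genes. Of 12 genes of pyrimidine and deoxynucleotide supply 11 were bound in the main list (91.7%, against the same 40.7%). In both replicates 4 of the 7 purine synthesis genes were bound, with 5 of the 14 other purine genes, 3 of the 5 folate genes and 10 of the 12 pyrimidine and deoxynucleotide genes, against the 32.2% of all genes. The highest signal values there were 3106 at r-l, 896 at Ts, 756 at Ctps and 726 at dUTPase, and CG6951 was unbound. The median signal value of the bound genes in the main list was 369 for the purine synthesis genes, 812 for the other purine genes, 485 for the folate genes and 469 for pyrimidine and deoxynucleotide supply, against 252 over all bound genes. The median of 369 includes the 827 of bur, whose summit lay nearer to the TSS of Mcm10. In the larger list, where 8 of the 14 other purine genes were bound, their median was 284. Whether these lists differ was not tested.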

How the data were processed

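Peak lists of 2 replicates of 1 group were analysed. Per the labels, chromatin was sonicated to 200 to 800 bp and coordinates are those of dm6. The aligner, the peak caller and the depth of reads: not given in the sources used here. Per the deposited file records, each list was derived from the alignments of 1 or both replicates and further files. The signal value, from the authors' peak caller, is deposited without its unit. In the deposited lists the score restates the IDR on a scale of whole numbers. Values of −log10 global IDR are those the authors deposited with the ranked entries. Of entries at a value of 2 or more in the main ranked list, 181 are not in the main list. The series' ranked lists hold 16 columns without names, which were not used.

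TSSs came from Ensembl release 115, whose names were matched by symbol or by a single RefSeq synonym, and sequence from RefSeq Release 6. No peak lay beyond a chromosome end. Mthfd matched no gene and Dak1 matched several, so both were left out, and AdenoK and Adk2 are the same gene. The binding rule was tested on simulated summits. Percentiles are shares of a list's entries with less signal. Genes named were the 7 genes, their neighbours and, per further list, the 4 strongest bound and the unbound genes, except 1 item that is not reported here, with ras, Prps and others named for their place in the pathway or beside a peak after their values were seen. The genes and lists were chosen with earlier results of these data known. Alternatives were other peak lists, windows, summit positions, TSS sets and motif windows. Python 3.11.15 was used with pandas 2.3.3.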

Additional observations from a re-analysis of the deposited data

How the results depend on the processing

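The count of 4 bound purine synthesis genes was 3 to 5 under all alternatives but 1. Among the 1000 strongest main-list entries 1 of 7 was bound, against 7.82% of all genes. The same setting and background left 3 of 14 other purine genes, 0 of 5 folate genes and 3 of 12 pyrimidine and deoxynucleotide genes. A window of 1000 bp gave 5 of 7, against 44.3% of all genes. Assigning summits to the nearest TSS gave 3 of 7, against 31.6%. By this rule 6 of 14 other purine genes, 2 of 5 folate genes and 10 of 12 pyrimidine and deoxynucleotide genes were bound. Leaving out bur, chosen after seeing the data, gave 3 of 6, against 40.7%. Over the list of each replicate alone the count was 4 and 5, against 33.5% and 42.1%. Within 200 bp of the summit 2 of 4 bound genes, ade2 and bur, had an E-box, against 5.37% of all main-list summits. Within 100 bp 0 of 4 had one, against 2.54%. The E-box near the bur summit, on 2L from 21180001 to 21180006, lay beyond the TSS of Mcm10 at 21179933 as seen from bur. It is therefore on the Mcm10 side and is not the site downstream of the bur TSS that is counted further on. The percentiles of the 4 bound genes were lower in the list of replicate 1 (42.0 to 82.9) than in that of replicate 2 (63.5 to 88.8). The list of replicate 1 is also shorter, with 5002 entries against 8250, so an equal rank gives a lower percentile there. No paired analysis was possible because the labels give 1 group. Read depth is not stated, so a weak peak cannot be told from a shallow library.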

Other observations

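The E-box CACGTG, the site of Myc and related proteins, stood downstream of the TSS in several of the 7 genes, a pattern noticed in these sequences and given without a test. Within 200 bp downstream of the gene's 5′ end it occurred in 3 of 7, Gart, ade2 and Paics, against 3.34% of 13968 genes, and within 600 bp in 5 of 7, Prat, Gart, ade2, Paics and bur, against 8.86%. Both windows were chosen after the matches were seen, and 2 of the 3 genes with the nearest sites were unbound. The sites of Gart, ade2 and Paics lay 99, 114 and 169 bp downstream, each in the 5′ UTR. They are shown with the E-box in capitals, in dm6 coordinates from the RefSeq copy of the assembly.
Gart, chr2L:7023787-7023812, minus strand: tttcgatcaaCACGTGggtgcgcatt
ade2, chr2L:6045924-6045949, minus strand: agctaagacgCACGTGtgctccgctc
Paics, chrX:12760436-12760461, minus strand: aagcccgcaaCACGTGaaacagccag

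An entry 247 bp upstream of AdSL with a signal value of 13.7 was in the larger thresholded list at rank 8545 of 8752, with a −log10 IDR of 4.11, while in the ranking behind the main list the same entry had 0.13.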
